A study of Mus musculus with 2 samples.

Results

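Myogenic transcription factors are the nuclear regulators that commit cells to the skeletal muscle lineage and drive their differentiation. The genes described here are 9 of these, chosen by gene symbol, out of 21829 gene symbols with a value: the myogenic bHLH factors Myod1, Myf5, Myog and Myf6, the paired-box factors Pax7 and Pax3, the homeobox factor Six4, and the MADS-box factors Mef2a and Mef2c. Values came from 2 libraries of C2C12, an immortalised mouse myoblast line. One library was from WT cells. The other was from KO cells, derived from C2C12 by CRISPR–Cas9 editing of Gne, the key enzyme of sialic acid synthesis, with an indel in exon 2 that leads to a premature stop codon. Both lines grew in the same serum-containing growth medium, not in differentiation medium. According to the methods, KO cells were isolated as single clones, so the KO library stands for clonal cells of this origin. With 1 library per line, no difference given here has a replicate check, no test was possible, and a difference between clones cannot be told apart from the effect of the edit.

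In muscle, Pax3 and Pax7 mark progenitors and satellite cells, the resident stem cells. Myf5 and Myod1 specify myoblasts, Myog starts terminal differentiation, and Myf6 acts in late differentiation and in the embryo. The bHLH factors bind DNA words called E-boxes as dimers with ubiquitous E proteins, and are held back by Id proteins, which take up those partners. MEF2 factors work with them on muscle genes, and Six4 acts upstream and on the Myog promoter.

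Levels are given as FPKM, a read depth-adjusted number of fragments per kilobase. The values carry no unit, and this one was inferred. Being per length, such values allow levels of different genes to be set side by side. The sums over genes were 568410 in the WT library and 574144 in the KO-labelled library, with 13709 and 13589 genes above 0. Differences are log2((KO + 1)/(WT + 1)), in which low genes appear to differ less than they do, and were read for 10542 genes whose mean reached 1 FPKM, referred to as past the filter. More than 2-fold, or past 2-fold, means beyond 1 in either direction on this scale, which the plain ratio of a gene can pass while this value does not. Their interquartile range ran from -0.21 to 0.23. Gne itself was at 6.67 FPKM in WT and 7.34 FPKM in the KO-labelled library, so its RNA level does not check which library carries the edit. Of 10 myoblast markers, 9 passed the filter. Of these, 4 were more than 2-fold lower and 1 higher in the KO-labelled library, against 3.43% and 2.84% of all genes past the filter. The summed levels of the list were 340.2 FPKM in WT and 167.3 FPKM in the KO-labelled library. This list holds Myod1, among the 4, and Myf5, the 1, so it is no separate check of them, and Myod1, Cdh15 and Chrna1 passed the filter only through WT. In bulk RNA, fewer cells of a type and less RNA per cell cannot be told apart.

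Of the 9 factors, 4 passed the mean of 1 FPKM, namely Myod1, Myf5, Six4 and Mef2a. Among them, 1 was more than 2-fold lower in the KO-labelled library (Myod1), where 3.43% of all genes were, and 1 was more than 2-fold higher (Myf5), where 2.84% of all genes were. The other 2, Six4 and Mef2a, lay inside 2-fold, and past 2-fold in either direction were 6.27% of all genes. Of the 4, Myod1 and Six4 had the lower value in the KO-labelled library, as did 49.3% of all genes past the filter. The 5 factors below the filter, Myog, Myf6, Pax7, Pax3 and Mef2c, had no value above 0.073 FPKM in either library. Counting every value without a filter, 5 of the 9 were higher in the KO-labelled library, 3 were lower and 1 was at 0 in both. Of all 14473 genes above 0 in at least 1 library, 50.7% were higher and 49.2% lower. These unfiltered counts take in values near 0, from which no difference is read.

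**Figure D1:**
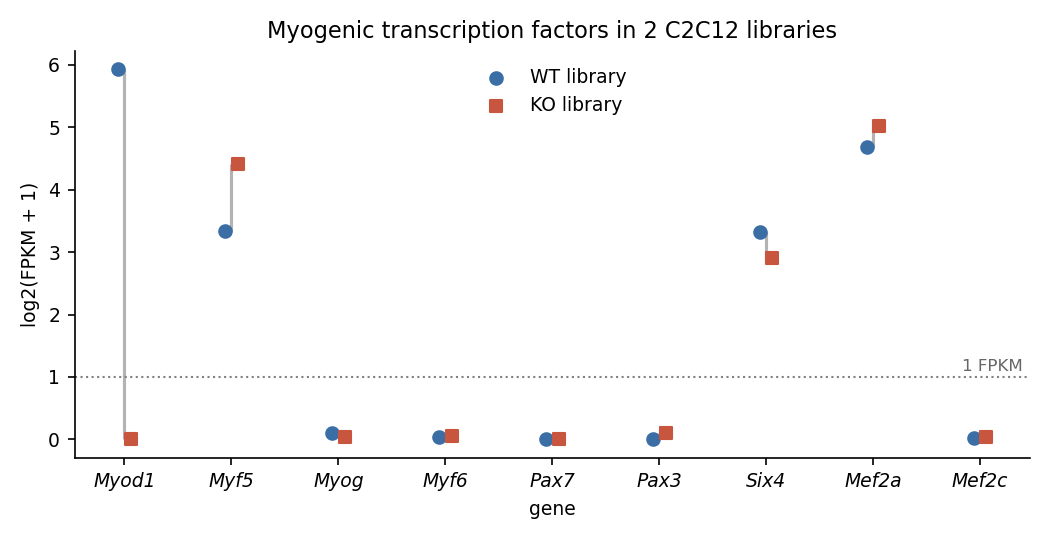
Level of each of the 9 myogenic transcription factors on the log2(FPKM + 1) scale, with 1 WT library (circles) and 1 KO library (squares) and a dotted line at 1 FPKM. Myod1 is at 59.97 FPKM in WT and 0 in KO, Myf5 at 9.14 and 20.3 FPKM, and the factors other than Myod1, Myf5, Six4 and Mef2a lie near 0 in both libraries.

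Myod1 (ENSMUSG00000009471), the factor able to convert fibroblasts to muscle, lies at GRCm39 chr7:46025870-46028526 on the plus strand. It was at 59.97 FPKM in the WT library, the highest of the 9 factors there, and was listed at 0 in the KO-labelled library. No fold is given against a 0, and without read counts a failed estimate cannot be told apart from absence. How low the library reached was looked at in 827 genes whose summed exon length was within 10% of the 1892 bases of Myod1. Of these, 340 had a value above 0 in the KO-labelled library, the lowest 0.018 FPKM. Being listed at 0 there with a mean of at least 1 FPKM was rare, at 16 genes or 0.152%. With a WT level of at least 10 FPKM, Igfbp2 was the sole other such gene, at 60.05 FPKM in WT. In the opposite direction 4 genes were listed at 0 in WT with at least 10 FPKM in the KO-labelled library: Rbpms, Smim20, Casd1 and Defb41, named after their values were seen. Myod1 passed the filter only through the WT library, so its difference followed from passing.

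The listed genes beside Myod1 on chromosome 7 were near 0 or differed less. The nearest listed genes, Otog at 0.0030 FPKM in WT and 0 in the KO-labelled library, and Kcnc1 at 0.012 FPKM and 0, were near 0 in both. Sergef, which begins 61.3 kb beyond Myod1, was at 2.36 FPKM in WT and 4.07 FPKM in the KO-labelled library. Saal1 was at 5.05 and 4.39 FPKM and Nomo1, 288.1 kb away on the other side, at 37.0 and 36.9 FPKM. Saa3, 332.9 kb from Myod1, was more than 2-fold lower, at 4.57 FPKM in WT and 1.74 FPKM in the KO-labelled library. Over the 74 genes past the filter within 5 Mb of Myod1, the median log2 difference was -0.00014.

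**Figure D2:**
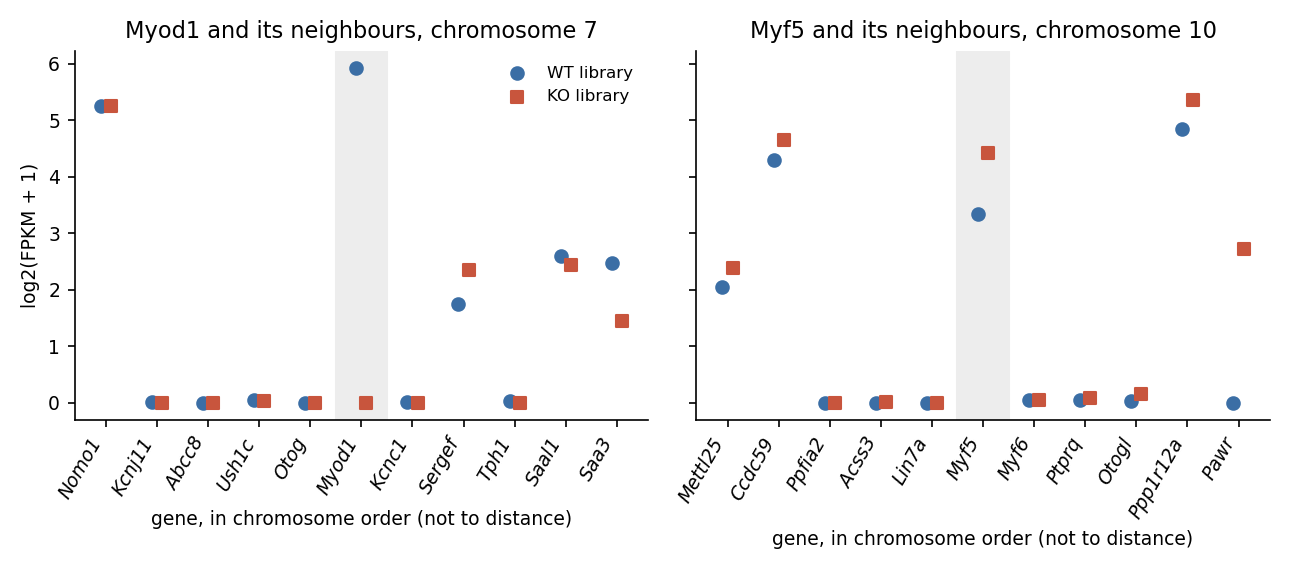
Levels on the log2(FPKM + 1) scale of Myod1 (left) and Myf5 (right), shaded, and of the 5 nearest listed protein-coding genes on each side, in chromosome order, with 1 WT library (circles) and 1 KO library (squares). Nomo1 is at 37.0 and 36.9 FPKM while Myod1 is at 59.97 FPKM and 0, and Ppp1r12a, like Myf5, is higher in KO, at 27.6 and 39.8 FPKM.

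Myf5 (ENSMUSG00000000435), the earliest of the bHLH factors to appear in the embryo, lies at GRCm39 chr10:107318769-107321995 on the minus strand. It was at 9.14 FPKM in WT and 20.3 FPKM in the KO-labelled library, 2.22 times as much, with a log2 difference of 1.07. This is just past 2-fold and depends on the scale. With a pseudocount of 5 the difference was 0.84. The median of the 13 genes past the filter within 5 Mb was 0.35, also towards the KO-labelled library. After subtraction of that median Myf5 had 0.72, so Myf5 was no longer past 2-fold. Of the neighbours of Myf5 that were higher in the KO-labelled library, Ppp1r12a was at 27.6 and 39.8 FPKM, Ccdc59 at 18.6 and 24.0 FPKM, and Pawr at 0 and 5.62 FPKM.

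Myf6 (ENSMUSG00000035923), 6.7 kb from Myf5 and on the same strand, stayed near 0, at 0.030 FPKM in WT and 0.034 FPKM in the KO-labelled library. The pair is known as one locus with shared control elements, and in both libraries Myf5 alone of the pair was above 1 FPKM. Myog (ENSMUSG00000026459), at GRCm39 chr1:134217707-134220287 on the plus strand, was at 0.068 FPKM in WT and 0.027 FPKM in the KO-labelled library. Both genes lay far under the filter, and with the number of reads unknown no difference was read from them.

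Summed, the 4 bHLH factors came to 69.2 FPKM in WT and 20.4 FPKM in the KO-labelled library. Myod1 made up 86.7% of this sum in WT, and Myf5 13.2%. In the KO-labelled library, Myf5 made up 99.7%, while Myog made up 0.133% and Myf6 0.167%. The WT library thus listed both Myod1 and Myf5 above 1 FPKM, and the KO-labelled library listed Myf5 alone.

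Pax7 (ENSMUSG00000028736, GRCm39 chr4:139464373-139560839, minus strand) was listed at 0 in both libraries. Among 2073 genes of like exon length, 1663 had a value above 0 in WT, the lowest 0.0050 FPKM. Pax3 (ENSMUSG00000004872, GRCm39 chr1:78077904-78173771, minus strand) was listed at 0 in WT and at 0.073 FPKM in the KO-labelled library. Neither satellite cell factor reached the filter in either line.

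Six4 (ENSMUSG00000034460, GRCm39 chr12:73146383-73160230, minus strand), a homeobox factor that acts upstream of the bHLH genes, was at 8.97 FPKM in WT and 6.53 FPKM in the KO-labelled library. Its log2 difference was -0.41, and -0.34 once the median of 50 neighbours was taken off. Mnat1, which overlaps Six4 on the map, was at 12.9 and 11.4 FPKM. Six4 was therefore lower in the KO-labelled library but inside 2-fold.

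Mef2a (ENSMUSG00000030557, GRCm39 chr7:66880911-67022606, minus strand), the broadly expressed MEF2 factor, was at 24.8 FPKM in WT and 31.4 FPKM in the KO-labelled library, a log2 difference of 0.33. It was the highest of the 9 factors in the KO-labelled library. Mef2c (ENSMUSG00000005583, GRCm39 chr13:83652064-83815555, plus strand), which rises with muscle differentiation, was at 0.012 and 0.023 FPKM. Of the other family members, Mef2d was at 27.4 FPKM in WT and 25.2 FPKM in the KO-labelled library, and Mef2b at 0.070 and 0.12 FPKM. The MEF2 genes above 1 FPKM in growth medium were the same in both lines, Mef2a and Mef2d.

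Ordered by level, the WT library ran Myod1, Mef2a, Myf5, Six4, Myog, Myf6 and Mef2c, with Pax3 and Pax7 at 0. The KO-labelled library ran Mef2a, Myf5, Six4, Pax3, Myf6, Myog and Mef2c, with Myod1 and Pax7 at 0. Myf5 and Six4 lay close in WT, at 9.14 and 8.97 FPKM, and with 1 library no spread tells such neighbours apart. Leaving out Myod1, the order of Mef2a, Myf5 and Six4 was the same in both libraries.

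**Figure D3:**
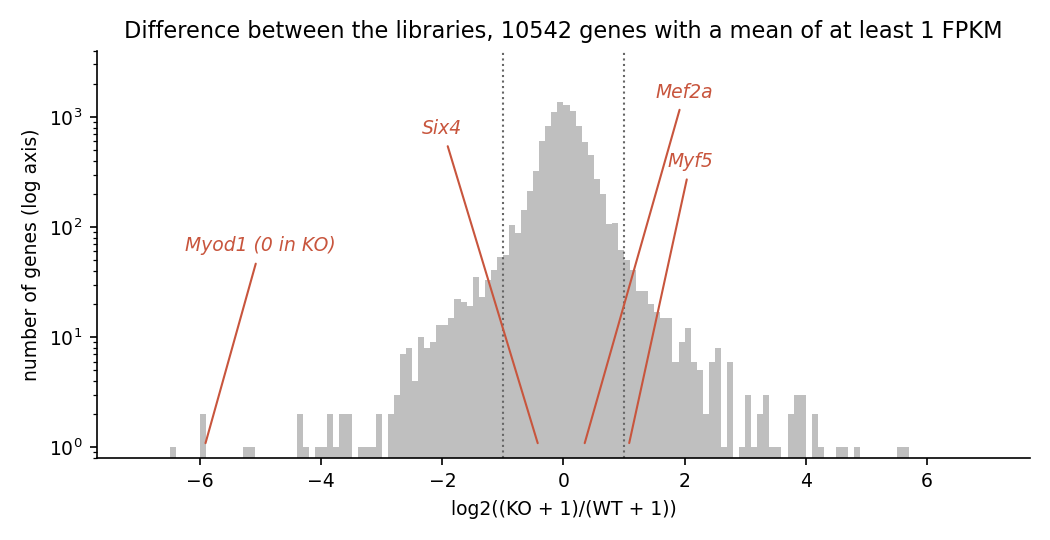
Number of genes (log axis) by log2((KO + 1)/(WT + 1)), in bins of 0.1, for the 10542 genes past the filter, with the 4 myogenic factors past the filter marked and dotted lines at 2-fold. Six4 at -0.41 and Mef2a at 0.33 lie in the body of the distribution, Myf5 at 1.07 just beyond 2-fold, and Myod1, listed at 0 in KO, in the far left tail.

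The stretches upstream of these genes are shown because several factors are known to act on one another's promoters. RefSeq windows of 250 bases before to 50 after an annotated start, on GRCm38.p6, were matched for 6 of the 9 factors by symbol, 9 windows in all. Myod1, Myf6 and Pax3 had no entry. Windows were searched on both strands for the E-box CANNTG, the MEF3 word bound by Six4, TCAGGTTTC, the MEF2 motif and the TATA word TATAAA. Of all 32851 windows, 72.3% held an E-box, 0.429% a MEF3 word, 3.19% a MEF2 motif and 13.6% a TATA word. The first 280 bases of 4 windows follow, with matches in capitals. That of Myog holds 2 E-boxes and a MEF3 word, that of Six4 a MEF3 word on the opposite strand, and that of Mef2a a MEF2 motif. That of Myf5 holds a TATA word, which begins at base 271 of the window and so lies after the annotated start. No 2 matches overlap in these windows. Near matches were not marked, such as ctatatttat in the Myog window, which differs from the MEF2 motif in its last letter.
Myog, GRCm38.p6 chr1:134289754-134290033, plus strand: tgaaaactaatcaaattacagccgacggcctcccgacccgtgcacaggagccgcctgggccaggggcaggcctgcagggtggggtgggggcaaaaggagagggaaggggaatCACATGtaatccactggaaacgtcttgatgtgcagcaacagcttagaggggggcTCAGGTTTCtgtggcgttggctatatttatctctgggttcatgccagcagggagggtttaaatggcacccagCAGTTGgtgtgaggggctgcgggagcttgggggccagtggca
Six4, GRCm38.p6 chr12:73113216-73113495, minus strand: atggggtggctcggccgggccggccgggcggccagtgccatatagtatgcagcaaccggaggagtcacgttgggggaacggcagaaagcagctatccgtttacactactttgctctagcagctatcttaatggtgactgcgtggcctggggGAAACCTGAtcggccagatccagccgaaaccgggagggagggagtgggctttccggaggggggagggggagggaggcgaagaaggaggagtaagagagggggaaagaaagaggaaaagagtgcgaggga
Mef2a, GRCm38.p6 chr7:67372829-67373108, minus strand: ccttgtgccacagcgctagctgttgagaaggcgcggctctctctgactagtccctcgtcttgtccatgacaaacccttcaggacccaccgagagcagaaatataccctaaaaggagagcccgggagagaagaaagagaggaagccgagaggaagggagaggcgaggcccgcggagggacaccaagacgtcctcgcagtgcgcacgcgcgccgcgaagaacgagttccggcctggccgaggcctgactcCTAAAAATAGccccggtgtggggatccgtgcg
Myf5, GRCm38.p6 chr10:107486105-107486384, minus strand: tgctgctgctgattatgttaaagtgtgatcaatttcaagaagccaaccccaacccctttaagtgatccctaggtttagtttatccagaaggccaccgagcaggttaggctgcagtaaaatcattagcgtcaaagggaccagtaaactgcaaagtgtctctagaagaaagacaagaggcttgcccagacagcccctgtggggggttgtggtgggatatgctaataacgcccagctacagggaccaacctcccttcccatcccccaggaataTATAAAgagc

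An E-box lay in 3 of the 9 windows, 1 of Myog and 2 of Mef2c. A MEF3 word lay in the window of Myog and in the printed window of Six4, but not in the other Six4 window. Myog, with both kinds of word, was at 0.068 and 0.027 FPKM in these libraries, and Six4 at 8.97 and 6.53 FPKM. A match is a description of letters and does not show a site in use.

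Partners, inhibitors, coactivators, relatives and targets of the factors were taken from 7 lists, 108 genes in all, of which 64 passed the filter. Of these 64, 9 were more than 2-fold lower in the KO-labelled library, where 3.43% of all genes were, and 1 was higher, where 2.84% were. These shares over all genes stand beside the counts of each list below. The median log2 difference of the 64 was -0.091, against 0.0061 for all genes.

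The E proteins, the dimer partners of the bHLH factors, were all above 20 FPKM in both libraries. Tcf3 was at 48.3 FPKM in WT and 59.2 FPKM in the KO-labelled library, Tcf4 at 20.8 and 25.6 FPKM, and Tcf12 at 26.6 and 26.6 FPKM. None of the 3 passed 2-fold.

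Of 22 inhibitors, 14 passed the filter and 1 was more than 2-fold lower, with a median of -0.13. Id3 was at 226.3 FPKM in WT and 98.6 FPKM in the KO-labelled library, a log2 difference of -1.19. Id1 was at 150.9 and 107.7 FPKM and Id2 at 92.9 and 47.8 FPKM, differences of -0.48 and -0.94. Id1, Id2 and Id3 were thus each lower in the library that listed Myod1 at 0, 1 of them past 2-fold, and Id4 was near 0 in both. Hes1, a Notch effector, was at 44.5 and 21.97 FPKM, a ratio of 0.493 but a difference of -0.99 on the scale used. The number of inhibitors more than 2-fold lower was 2 with a pseudocount of 0.1, with scaling to the same total and with neighbouring genes subtracted. Of the other repressors past the filter none passed 2-fold, and they lay in both directions. Twist2 was at 61.9 and 62.3 FPKM, Snai1 at 29.3 and 27.9 FPKM and Snai2 at 22.1 and 21.95 FPKM. Hdac7 was at 35.1 and 26.5 FPKM, Bhlhe41 at 23.1 and 16.6 FPKM, Zeb1 at 17.5 and 21.7 FPKM and Hdac4 at 3.42 and 4.57 FPKM. Twist1, Mdfi and Msc were listed at 0 in both libraries.

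Of 14 coactivators and chromatin partners, 13 passed the filter and 1 was more than 2-fold lower, with a median of -0.027. That was Nfix, a factor of the fetal muscle programme, at 163.8 FPKM in WT and 72.9 FPKM in the KO-labelled library, a log2 difference of -1.16. Genes around it on chromosome 8 had a median of -1.47, and after its subtraction the value of Nfix was 0.32. Carm1 was at 51.2 and 62.4 FPKM and Prmt5 at 49.7 and 38.6 FPKM. Of 19 relatives and upstream factors, 8 passed the filter and 0 passed 2-fold.

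The early targets of the bHLH factors had the lowest median of the 7 lists. Of 16 genes on the list, 9 passed the filter. The value in the KO-labelled library was lower for 8 of them and higher for 1, where 49.3% of all genes past the filter were lower. Of the 9 past the filter, 4 were more than 2-fold lower and 0 higher, with a median of -0.997. That median was -0.64 with a pseudocount of 5 and -0.53 over all 16 genes with no filter. Cdh15, Chrna1 and Chrnd passed the filter only through WT, so their lower value followed from passing. Des, the muscle intermediate filament, was at 97.6 FPKM in WT and 3.84 FPKM in the KO-labelled library. Cdh15, or M-cadherin, was at 16.6 and 0.70 FPKM, and Chrna1, the alpha subunit of the muscle acetylcholine receptor, at 15.3 and 0.92 FPKM. Rapsn, which clusters that receptor, was at 96.5 and 44.1 FPKM, a log2 difference of -1.11, which became -0.96 with neighbouring genes subtracted and so was no longer past 2-fold.

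The other receptor subunits were also lower, and their calls depended on the scale. Chrnd was at 2.96 FPKM in WT and 0.99 FPKM in the KO-labelled library, a ratio of 0.333 and a log2 difference of -0.997. With a pseudocount of 0.1 it was -1.50, with neighbouring genes subtracted -1.16, with either scaling just past 1 in size, and with a pseudocount of 5 -0.41. Chrnb1 was at 12.8 and 6.37 FPKM, a ratio of 0.499. Mymk, the myoblast fusion protein, and Chrng, the fetal receptor subunit, were under the filter, at 0.60 and 0.46 FPKM in WT and at 0 in the KO-labelled library. Early targets of the cell cycle differed less. Cdkn1a, the CDK inhibitor p21, was at 85.1 and 78.2 FPKM, Ccnd3 at 88.0 and 72.8 FPKM, and Rb1, the single gene that was higher, at 7.79 and 7.89 FPKM.

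Upstream windows were matched for 10 of the 16 early targets, 13 windows in all, and 11 of them held an E-box, against 72.3% of all windows. The first 280 bases for Chrna1 and Des are given because both genes were far lower in the KO-labelled library. Each of these windows holds E-boxes, in capitals, at least 1 of them CAGCTG. The share of all windows with this word was not computed. The window of Cdh15, also far lower at a log2 difference of -3.37, holds E-boxes but not this word. Windows of Cdkn1a, at -0.12, and of Chrng, Dll1 and Musk, which lay below the filter, do hold it. Neither the E-box count against all windows nor a bearing of these words on the levels was tested.
Chrna1, GRCm38.p6 chr2:73580309-73580588, minus strand: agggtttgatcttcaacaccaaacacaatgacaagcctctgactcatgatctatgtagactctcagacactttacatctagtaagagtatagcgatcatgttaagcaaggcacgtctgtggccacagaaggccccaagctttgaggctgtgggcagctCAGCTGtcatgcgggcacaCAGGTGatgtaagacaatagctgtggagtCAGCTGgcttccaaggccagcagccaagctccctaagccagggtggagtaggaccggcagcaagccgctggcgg
Des, GRCm38.p6 chr1:75360042-75360321, plus strand: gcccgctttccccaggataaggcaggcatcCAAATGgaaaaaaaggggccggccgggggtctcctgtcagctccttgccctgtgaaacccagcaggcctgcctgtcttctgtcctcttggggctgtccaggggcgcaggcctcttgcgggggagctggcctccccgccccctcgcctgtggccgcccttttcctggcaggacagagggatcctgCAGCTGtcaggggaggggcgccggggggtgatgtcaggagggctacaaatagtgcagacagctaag

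The late, contractile targets were mostly near 0 in both libraries, and 5 of 19 passed the filter. Tnnc1, slow troponin C, was more than 2-fold lower, at 6.66 FPKM in WT and 2.74 FPKM in the KO-labelled library, a log2 difference of -1.03. It was no longer past 2-fold with a pseudocount of 5, at -0.59, or with neighbouring genes subtracted, at -0.95, and a filter at 5 FPKM removed it. Tnnt2, cardiac troponin T, was level at 25.4 and 26.4 FPKM, and Acta1, skeletal actin, was at 1.84 and 3.93 FPKM. Among the 14 late targets below the filter were Ckm, at 0.029 and 0.016 FPKM, and Myh3, at 0.0090 FPKM and 0. The median of the 5 was 0.057.

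Of 18 satellite cell genes, 13 passed the filter. Of these, 3 were more than 2-fold lower and 1 was higher, against 3.43% and 2.84% of all genes, and the median was -0.0090. Besides Cdh15, Cd34 was at 136.1 FPKM in WT and 10.6 FPKM in the KO-labelled library, and Cxcr4, a chemokine receptor of migrating precursors, at 29.5 and 4.37 FPKM. Spry1, an inhibitor of growth factor signalling, was higher, at 0.16 and 3.06 FPKM, a log2 difference of 1.81 that was 0.65 with a pseudocount of 5. Spry1 passed the filter only through the KO-labelled library, and Cdh15 only through WT, so the direction of each followed from passing. Of the other abundant surface genes, Itgb1 was at 152.9 and 247.4 FPKM and Sdc4 at 120.0 and 80.3 FPKM, both inside 2-fold.

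**Figure D4:**
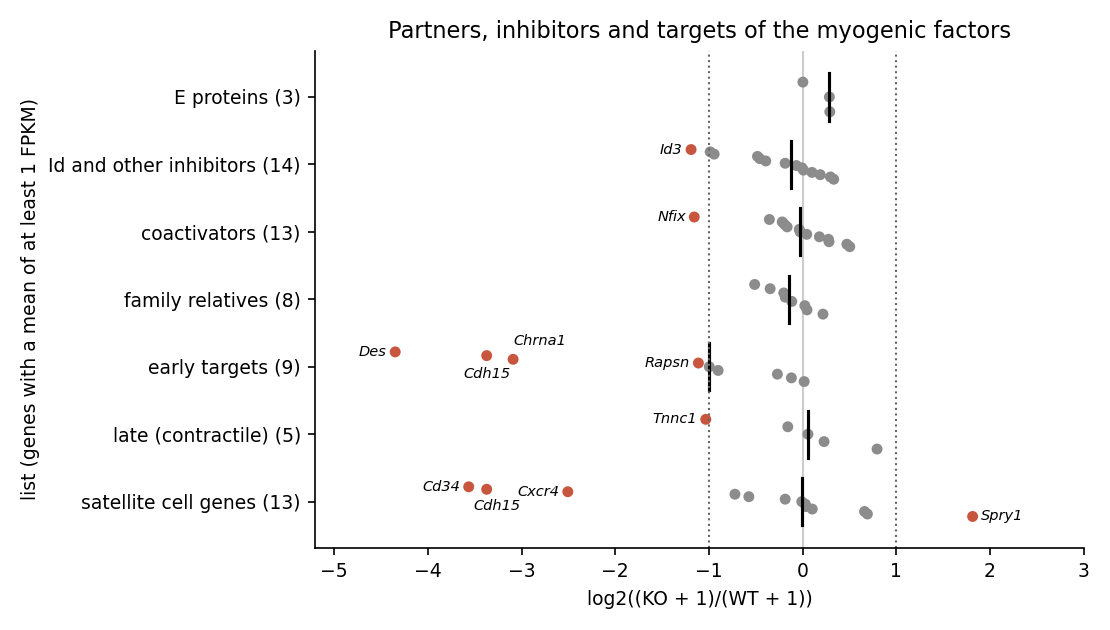
Difference between the libraries, log2((KO + 1)/(WT + 1)), for genes past the filter on 7 lists, with the number of genes in brackets, each point a gene, black bars the medians and dotted lines at 2-fold. The early targets, with a median of -0.997, reach furthest to the left, and the medians of the other 6 lists lie between -0.15 and 0.29.

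Markers of other cell types were read beside these values. Of 6 smooth muscle genes, 3 passed the filter, and each of these was higher in the KO-labelled library, where 49.3% of all genes past the filter were lower. Of the 3, 2 were more than 2-fold higher, against 2.84% of all genes. The sum over all 6 was 256.9 FPKM in WT and 626.3 FPKM in the KO-labelled library. Most of it was Acta2, at 212.7 and 543.6 FPKM, and Tagln, at 20.3 and 54.5 FPKM. Myh11, the defining myosin of smooth muscle, was at 0.0090 and 0.020 FPKM. Of 10 fibroblast genes, 4 passed the filter, 1 of them higher and 3 lower. Of these 4, 2 were more than 2-fold lower, Cd34 and Osr1, against 3.43% of all genes. Osr1, at 3.14 and 0.69 FPKM, passed the filter only through WT. The sums over all 10 were 348.8 and 172.0 FPKM. Most of that difference was Cd34, also on the satellite cell list, Ly6a was at 198.4 and 146.2 FPKM and Dcn at 0.27 and 1.68 FPKM, and Tcf21 and Lum were listed at 0 in both. Of 5 neural genes, 2 passed the filter, both only through WT, Tubb3 at 17.99 and 0.997 FPKM and Map2 at 4.25 FPKM and 0. The neural sums were 22.5 and 1.38 FPKM, and Sox10 was at 0 in both. Adipocyte sums were 15.6 and 22.7 FPKM with Adipoq and Plin1 at 0. Cebpa was more than 2-fold higher, at 5.4 and 13.1 FPKM, a log2 difference of 1.13, where 2.84% of all genes were. Pparg was at 10.2 and 9.31 FPKM, and Fabp4 at 0 and 0.32 FPKM. Osteoblast and chondrocyte sums were 40.0 and 41.9 FPKM with Alpl and Acan at 0. Sox9 was at 16.0 and 24.0 FPKM and Runx2 at 23.0 and 17.7 FPKM, both inside 2-fold. Bglap, below the filter, was at 1.09 and 0.23 FPKM. Endothelial sums were 0.010 and 0.028 FPKM, with Cdh5, Kdr and Emcn at 0, and of the 5 immune genes Cd68 alone was above 0, at 2.85 and 1.06 FPKM. The part of these differences in the values of the myogenic factors was not tested.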

How the data were processed

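Polyadenylated RNA of 1 WT and 1 KO C2C12 culture was measured. The authors deposited 1 FPKM value per gene symbol and library. The tables name no unit, and FPKM was inferred from totals that differ between the libraries and from steps between low values, so TPM restricted to these genes was also possible. Read depth is unknown, and no counting interval is given. The methods name TrimGalore, STAR on GRCm39 and RSEM, the submitters' processing notes Trim Galore 0.6.6, STAR 2.7.9a, RSEM 1.3.3 and GRCm38, and these sources also differ in library kit. The design had allowed for counts, and no count model or p-value was used.

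Of 21853 entries, 24 repeated a symbol and the one with the higher mean was kept. Gene positions and exon lengths came from GENCODE vM39 on GRCm39, upstream windows from RefSeq on GRCm38.p6. Members and lists were chosen with earlier results of these data known. Named were all members, the genes of each list past 2-fold (up to 4 a direction) and up to 2 abundant others, the nearest gene on either side of each member, the 3 genes nearest in level to each member past 2-fold, and Gne. Chrnd, Chrnb1, Chrng, Mymk, Rb1, Saa3, Tcf4, Twist1, Twist2, Snai1, Snai2, Mdfi, Msc, Id4, Hes1, Hdac4, Hdac7, Bhlhe41, Zeb1, Mef2b, Mef2d, Ckm, Myh3, Pawr, Ppp1r12a, Ccdc59, Sergef, Saal1, Nomo1 and the markers were added after their values were seen. Some genes the rule names are not reported here. Calls were tested on simulated data. The planted changes lay far past 2-fold, so the simulation does not check calls near 2-fold or of low genes. Python 3.11.15, numpy 2.4.6, pandas 2.3.3 and matplotlib 3.10.9 were used.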

Additional observations from a re-analysis of the deposited data

How the results depend on the processing

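The alternatives were a pseudocount of 0.1, one of 5, a filter at 5 FPKM in place of 1 and none at all, scaling by the median of ratios, scaling to the same total, summing repeated symbols, subtraction of neighbouring genes and, chosen after seeing the data, leaving out genes listed at 0. The number of myogenic factors more than 2-fold higher, 1, became 0 with a pseudocount of 5 and with neighbouring genes subtracted. The number lower, 1, became 0 with genes listed at 0 left out, since Myod1 was then not counted. On the wider lists the 1 higher gene became 2 under the pseudocount of 0.1 and 0 under that of 5 or the filter at 5 FPKM. Over all genes, 299 higher and 362 lower became 102 and 176 under the pseudocount of 5, and 145 and 221 under the filter at 5 FPKM, where 8572 genes were tested. Nfix went from -1.16 to 0.32 with neighbouring genes subtracted. The number of early targets more than 2-fold lower was 4 or 5 under each alternative, with Rapsn inside and Chrnd past 2-fold once neighbouring genes were subtracted. Where no cause is named, the cause was not tested.

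With 1 library per group, none was left out. No paired analysis was possible because each group holds 1 library and no test between groups was run. Both scalings moved all genes by at most 0.0145 on the log2 scale. With the depth unknown, no difference between values near 0 is read.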

Other observations

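Likeness to the 2 factors past 2-fold was measured as the distance on the log2(FPKM + 1) scale over the 2 libraries, which share all their depth and processing, and is a description. Nearest to Myod1 lay Igfbp2, at a distance of 0.0017, then Stmn2 at 0.57 and Igfbp3 at 0.68. Stmn2 was at 89.3 FPKM in WT and 0.064 FPKM in the KO-labelled library, and Igfbp3 at 37.2 and 0.052 FPKM. Nearest to Myf5 lay Ppm1l, at 9.18 and 20.0 FPKM, Usp46 at 9.16 and 19.8 FPKM and Gxylt2 at 8.75 and 19.6 FPKM.

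The ratio of Myf6 between the KO-labelled library and WT was 1.13. Among 406 genes between 0.02 and 0.1 FPKM in both libraries, the most frequent ratio lay between 1.12 and 1.14, in 28 genes. The listed ratio of Myf6 lay in that bin. At this level the values are rounded too coarsely to place a ratio in so narrow a bin, so nothing is read from it.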
